A study of Sus scrofa with 33 samples.

Results

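The 8 genes described here were followed in the right ventricle of pigs with acute pulmonary banding. IL1B, IL18, IL1R1, TLR4, TRAF6 and NFKBIA belong to interleukin-1 family and toll-like receptor signalling. IL10 and IL4R belong to other routes, known for restraining or redirecting inflammation. All 8 were taken by gene symbol: a probe set counted for a gene when the annotation of the array gave it that symbol and no other. The 8 genes were covered by 16 of the 23999 probe sets tested and are 8 of the 6765 genes that had a probe set of their own. Where a gene had several probe sets, the one brightest on average across the 33 arrays represents it, and the rest are shown beside it. All 8 matched a RefSeq gene of the same symbol in Sus scrofa. RefSeq also lists IL1B2, a further pig gene for which IL1B is a synonym, and the IL1B probe sets may not separate the pair.

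The study took 3 biopsies from the free wall of the right ventricle of each of 11 pigs, and each biopsy was hybridised to its own Affymetrix Porcine array. In the shunt arm (6 pigs) the biopsies were a baseline, a biopsy after 120 min of pulmonary banding, which narrows the pulmonary artery and was used to induce right ventricular failure, and a last one after 60 min more with a modified Glenn shunt, a surgical route that takes superior caval blood straight to the pulmonary artery. In the control arm (5 pigs) the last biopsy came after 60 min more of banding alone. Allocation to an arm was at random and came after failure was established, so at 120 min both arms had had the same banding. Neither strain, sex nor age is given in the sources used here. No pigs without banding are among the samples, and every change between biopsies therefore includes the hours that passed and the surgery itself.

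Interleukin-1 beta and interleukin-18 are cytokines made as inactive precursors, and the protease caspase-1 cuts both to the active form. The interleukin-1 receptor and toll-like receptor 4, which senses bacterial lipopolysaccharide and products of damaged tissue, share an intracellular domain and signal through MyD88, IRAK kinases and the ubiquitin ligase TRAF6 to the kinases that release NF-kB from its inhibitor, which NFKBIA encodes. NF-kB then induces IL1B and also NFKBIA itself, which closes the loop, while interleukin-10 and the interleukin-4 receptor act through JAK kinases and STAT3 or STAT6 and are known for restraining or redirecting inflammation.

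All values are log2 RMA values, a change is a difference of log2 values within a pig, and a change passed when its p from limma, adjusted by Benjamini-Hochberg over all 23999 probe sets, was under 0.05. Levels of different probe sets are not set against each other. The biopsies carried the RNA of ventricular muscle: the 10 cardiomyocyte markers measured, of 12 listed, lay at or above the 95.1 percentile of all probe sets on every array. Correlations between arrays ran from 0.956 to 0.995. As a measure of RNA integrity, the 3' minus 5' signal of GAPDH had group means from 0.759 to 0.865. Single arrays ran from 0.461 to 1.31. Spiked-in control RNAs divided the arrays by pig into sets with shunt pigs 1 to 4, shunt pigs 5 and 6, and control pigs 1 to 5; the BioB control averaged 8.33, 5.96 and 9.35 in these sets. No set held pigs of both arms, so wherever arms are compared the effect of the array set cannot be told apart from that of the arm.

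**Figure D1:**
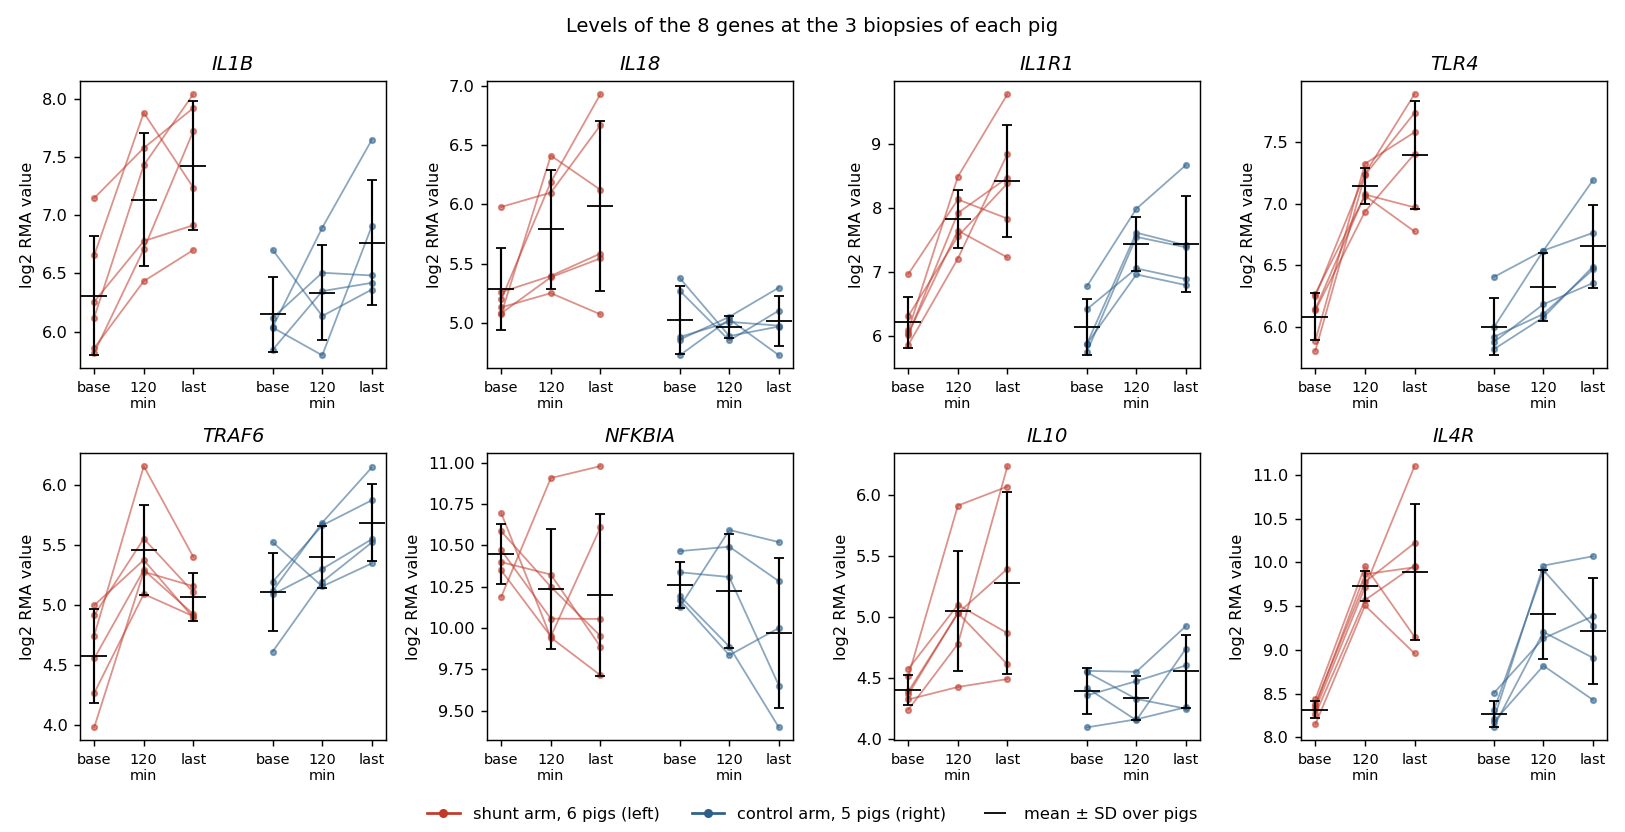
Log2 RMA values (vertical axis) of the representative probe set of each gene at baseline, at 120 min and at the last biopsy. Thin lines join the biopsies of a pig, red for the 6 shunt pigs on the left and blue for the 5 control pigs on the right of each panel, and black marks show the mean ± SD over pigs. IL4R and IL1R1 are higher at 120 min than at baseline in 11 of 11 pigs, and NFKBIA in 3 of 11.

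After 120 min of banding, transcripts of both receptors of the group, of the interleukin-4 receptor, of the adaptor TRAF6 and of interleukin-1 beta had risen. IL1R1 was 2.75-fold, IL4R 2.45-fold, TLR4 1.65-fold, TRAF6 1.53-fold and IL1B 1.45-fold higher than at baseline. IL10, IL18 and NFKBIA did not pass. Thus 5 of 8 genes were higher and 0 lower, where 29.0% of all probe sets passed, 11.6% higher and 17.4% lower. The 8 genes were chosen with earlier results of these data known, so the count is no test of the group. IL1R1, IL4R and TLR4 were higher in each of the 11 pigs, as 3.96% of probe sets were. Taken by arm, levels at 120 min lay wholly above those at baseline for IL1R1, IL4R, TLR4 and TRAF6 among the shunt pigs, as for 3.95% of probe sets, and for IL1R1 and IL4R among the control pigs, as for 2.38%. The median change of the 8 genes was 0.57, and that of all probe sets 0.01.

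IL1R1 encodes the signalling receptor for interleukin-1 alpha and beta. In the shunt pigs its level lay between 7.21 and 8.49 at 120 min (median 7.78), against 5.87 to 6.97 at baseline (median 6.07). In the control pigs it was 7.61, 7.99, 6.96, 7.06 and 7.55 at 120 min, against 5.88, 6.78, 5.88, 6.42 and 5.76 at baseline. Every pig was higher at 120 min, and the levels of the times overlapped only where a control pig at 120 min met the highest shunt pig at baseline. The mean change was 1.46 ± 0.19 (SE, n = 11 pigs) with an adjusted p of 2.40e-06. A dimmer probe set of IL1R1, among the 30% of probe sets with the lowest means, moved by 0.11 ± 0.07 (adjusted p = 0.250) and correlated with the main one at r = 0.30 over the 33 arrays after each pig's mean was taken off.

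TLR4 encodes the lipopolysaccharide receptor. Its level in the shunt pigs lay between 6.94 and 7.33 at 120 min (median 7.16), against 5.81 to 6.27 at baseline (median 6.14). Among control pigs it was 6.11, 6.62, 6.18, 6.62 and 6.08 at 120 min, against 5.92, 6.41, 5.88, 5.997 and 5.82 at baseline. The shunt pigs showed no overlap between the times and the control pigs did, though each pig was higher at 120 min. The change was 0.73 ± 0.09 (adjusted p = 2.76e-06, 11 of 11 pigs). Of the other 4 probe sets of TLR4, 3 passed, with rises of 0.57 ± 0.13 (adjusted p = 0.00147), 0.32 ± 0.06 (adjusted p = 0.000491) and 0.19 ± 0.07 (adjusted p = 0.0451). The first and the last of these, and the set that did not pass, were among the dimmest 30%. The remaining one moved by 0.08 ± 0.09 and followed the main probe set at r = 0.13, against 0.87, 0.84 and 0.47 for the others.

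IL1B encodes interleukin-1 beta. Levels at 120 min lay between 6.43 and 7.88 in the shunt pigs (median 7.10), against 5.82 to 7.15 at baseline (median 6.19). In the control pigs they were 6.13, 6.89, 6.35, 6.50 and 5.80 at 120 min, against 6.70, 6.04, 5.84, 6.12 and 6.03 at baseline. Control pigs 1 and 5 were lower at 120 min than at baseline, and the 9 other pigs were higher. The mean change was 0.54 ± 0.15 with an adjusted p of 0.00921, and the second probe set gave 0.37 ± 0.11 (adjusted p = 0.0103), following the main one at r = 0.94. The call rested on the shunt arm: in the control pigs alone the change was 0.19 (adjusted p = 0.671), and with shunt pigs 5 and 6 as the shunt arm it was 0.29 (adjusted p = 0.280). Without the term for the pig the adjusted p was 0.0559.

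IL18 encodes interleukin-18, which acts through a receptor of its own. Its level in the shunt pigs lay between 5.25 and 6.41 at 120 min (median 5.75), against 5.07 to 5.98 at baseline (median 5.16). Among control pigs it was 5.01, 5.05, 5.03, 4.85 and 4.89 at 120 min, against 4.88, 4.86, 4.72, 5.27 and 5.38 at baseline. Shunt pigs 2 and 3 stood out with changes of 0.99 and 1.34, and the other 9 pigs lay between -0.49 and 0.30. The mean change of 0.25 ± 0.12 did not pass (adjusted p = 0.131, 95% interval from -0.00307 to 0.50).

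TRAF6 encodes the ubiquitin ligase on which the signals of both receptors converge. In the shunt pigs its level lay between 5.09 and 6.15 at 120 min (median 5.33), against 3.98 to 4.998 at baseline (median 4.65), with no overlap. In the control pigs it was 5.30, 5.16, 5.66, 5.69 and 5.19 at 120 min, against 5.09, 5.52, 5.19, 5.12 and 4.61 at baseline. Control pig 2 was lower at 120 min and the other 10 pigs were higher. The change was 0.61 ± 0.10 (adjusted p = 6.08e-05), and in the control pigs alone it was 0.29 (adjusted p = 0.241). A second, very dim probe set moved by 0.03 ± 0.06 and followed the main one at r = 0.10.

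NFKBIA encodes I-kappa-B-alpha, the inhibitor that NF-kB induces against itself. Its level lay between 9.94 and 10.91 in the shunt pigs at 120 min (median 10.15), against 10.19 to 10.70 at baseline (median 10.43). Among control pigs it was 9.89, 10.59, 10.31, 10.49 and 9.84 at 120 min, against 10.19, 10.13, 10.34, 10.47 and 10.17 at baseline. Shunt pig 3 (0.72) and control pig 2 (0.47) were clearly higher at 120 min, control pig 4 barely so (0.03), and the other 8 pigs were lower. The mean change of -0.13 ± 0.13 did not pass (adjusted p = 0.472), and its 95% interval ran from -0.39 to 0.13.

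IL10 encodes the anti-inflammatory cytokine interleukin-10. Its probe set was among the dimmest 30%. In the shunt pigs the level lay between 4.43 and 5.91 at 120 min (median 5.03), against 4.24 to 4.57 at baseline (median 4.38). In the control pigs it was 4.47, 4.55, 4.16, 4.33 and 4.15 at 120 min, against 4.36, 4.56, 4.10, 4.55 and 4.42 at baseline. The 6 shunt pigs were all higher at 120 min, and 2 of the 5 control pigs were. The mean change over 11 pigs was 0.32 ± 0.14 (adjusted p = 0.0759) and did not pass. In the shunt pigs alone it was 0.64 (adjusted p = 0.0488), and without shunt pig 2 it was 0.30 (adjusted p = 0.0403). Leaving out each pig in turn gave 0.22 to 0.38.

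IL4R encodes the receptor chain that binds interleukin-4 and takes part in the response to interleukin-13. Its level in the shunt pigs lay between 9.51 and 9.96 at 120 min (median 9.74), against 8.15 to 8.44 at baseline (median 8.34). Among control pigs it was 9.91, 9.96, 8.82, 9.20 and 9.13 at 120 min, against 8.31, 8.21, 8.18, 8.12 and 8.50 at baseline. Of the 8 genes, IL4R was the one whose levels over all 11 pigs did not overlap between the times, a pattern that 0.571% of all probe sets showed in the upward direction. The change was 1.29 ± 0.16 (adjusted p = 1.17e-06), and among the shunt pigs it was nearly uniform, from 1.31 to 1.52, against 0.63 to 1.75 among the control pigs. The second probe set moved by 0.14 ± 0.06 and did not pass (adjusted p = 0.0691), with r = 0.66 to the main one.

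**Figure D2:**
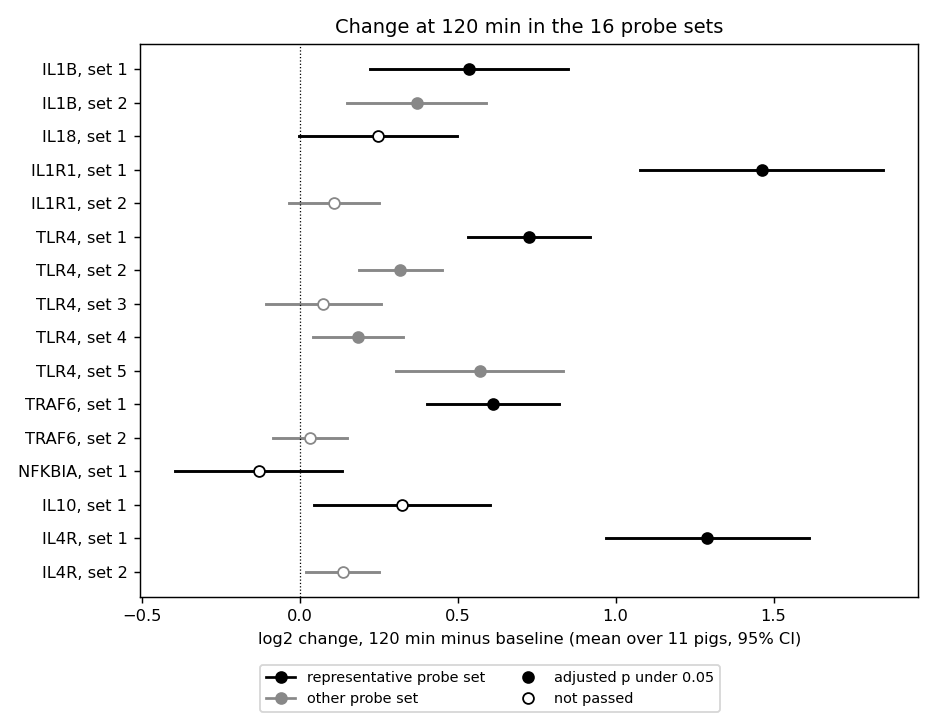
Log2 change from 120 min minus baseline (horizontal axis, mean over 11 pigs with 95% confidence interval) of the 16 probe sets of the 8 genes, black for the representative set of a gene and grey for its other sets, filled where the adjusted p was under 0.05. The changes of the other sets of IL1R1, IL4R and TRAF6 are 0.11, 0.14 and 0.03, all below those of the representative sets.

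The representative sets of IL1R1, IL4R and TRAF6 were thus the only ones of these genes to pass at 120 min, whereas IL1B and TLR4 passed with further sets. When all probe sets of a gene were averaged, the same 5 genes passed, with changes of 0.79 for IL1R1, 0.71 for IL4R, 0.37 for TLR4, 0.32 for TRAF6 and 0.45 for IL1B.

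Other genes of these routes were taken from lists by role, of which 45 of 90 genes were on the array under a symbol of their own. The counts at 120 min stand beside the 11.6% of all probe sets that were higher and the 17.4% that were lower. At 120 min, 2 of the 8 toll-like receptors and co-receptors measured had risen: TLR2, the receptor for bacterial lipoproteins (0.89 ± 0.13, adjusted p = 1.28e-05), and CD14, which hands lipopolysaccharide to TLR4 (0.23 ± 0.08, adjusted p = 0.0295). Of the interleukin-1 family receptors SIGIRR, a receptor known as a brake on the pathway, had risen (0.29 ± 0.08), as 1 of 2 measured. Neither of the 2 ligands and inhibitors measured, IL1A and IL18BP, passed. Among the adaptors and kinases 5 of 10 had risen and none had fallen, and those with the smallest p were MAP3K7, the kinase downstream of TRAF6 (0.45 ± 0.09), IKBKG, a subunit of the I-kappa-B kinase (0.23 ± 0.05), PELI1 (0.26 ± 0.07) and TICAM2, an adaptor of TLR4 (0.23 ± 0.07). The only NF-kB subunit measured, NFKB1, moved by 0.15 and did not pass either.

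Of 19 feedback inhibitors listed 9 were measured, and 6 of the 9 had risen, where 11.6% of all probe sets had. TNFAIP3, NFKBIZ and IRAK3 were among those not measured. The median change of the 9 was 0.28, against 0.01 over all probe sets. NFKBIB, which encodes the related inhibitor I-kappa-B-beta, had risen by 0.65 ± 0.10 (adjusted p = 1.63e-05), OTULIN, which removes linear ubiquitin chains, by 0.50 ± 0.08, the MAP kinase phosphatase DUSP1 by 0.90 ± 0.17 and ZFP36, which destabilises cytokine mRNAs, by 1.31 ± 0.24. Of the inflammasome genes GSDMD, the pore protein through which mature interleukin-1 beta leaves cells, had risen (0.59 ± 0.10) and CASP1, the protease that cuts the precursors, moved by -0.26 without passing. In interleukin-10 and interleukin-4 receptor signalling 6 of 11 genes had risen and 1 had fallen. STAT3 (0.99 ± 0.11), IL10RB, a chain of the interleukin-10 receptor (0.95 ± 0.11), JAK2 (0.82 ± 0.13) and STAT6 (0.33 ± 0.08) had the smallest p among the rises, and TYK2, a JAK kinase of the interleukin-10 receptor, fell by 0.19.

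**Figure D3:**
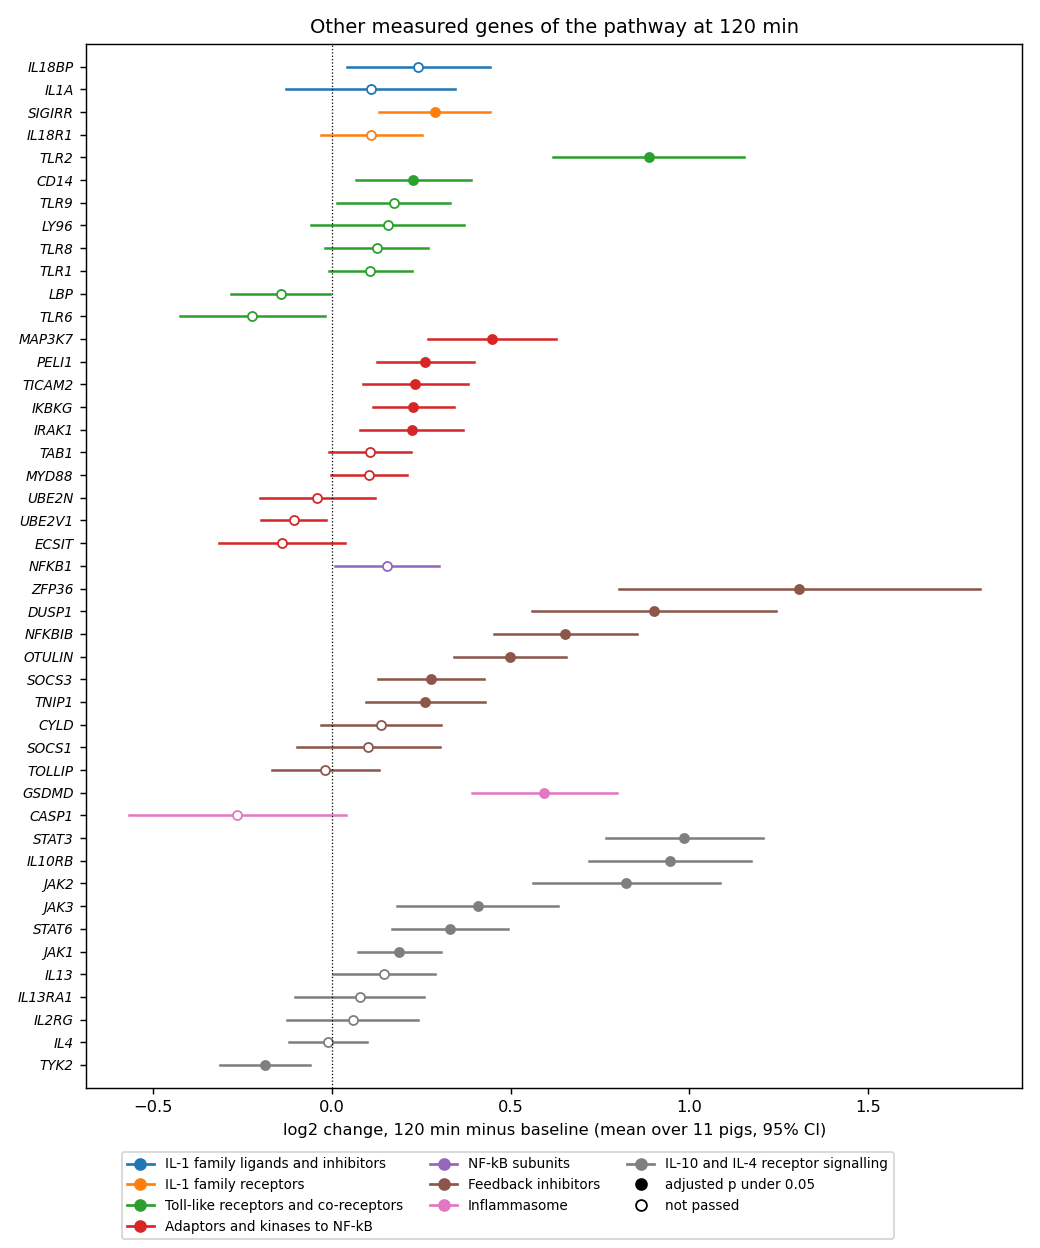
Log2 change from 120 min minus baseline (horizontal axis, mean over 11 pigs with 95% confidence interval) of the 45 other pathway genes measured, coloured by role and filled where the adjusted p was under 0.05. The largest change is that of ZFP36 (1.31), and TYK2 is the only filled point below 0.

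The biopsies are bulk tissue, in which a change in the number of cells of a type and a change of RNA per cell cannot be told apart. Of 12 neutrophil and monocyte markers 8 were measured, and 3 had risen at 120 min: S100A9 (1.38 ± 0.29), TYROBP (0.42 ± 0.13) and CD14, which is also in the receptor list above. The mean change of the 8 markers was 0.61 ± 0.35 in the shunt pigs (SD, higher in 6 of 6), against 0.02 ± 0.15 in the control pigs (higher in 2 of 5). Their summed linear signal ran from 743.4 to 1774 at 120 min in the shunt arm, against 712.1 to 808.2 at baseline, and from 649.3 to 899.6 at 120 min in the control arm, against 697.5 to 947.4 at baseline. Macrophage markers (6 of 8 measured) had a mean change of 0.30 ± 0.26 in the shunt pigs and 0.19 ± 0.32 in the control pigs, and their summed signal at 120 min ran from 1585 to 2816 in the shunt pigs and from 1406 to 1746 in the control pigs. Lymphocyte markers (7 of 12 measured) had a mean change of -0.07 ± 0.21 in the shunt pigs, against -0.18 ± 0.11 in the control pigs, lower in 5 of 5. Erythrocyte markers (HBB, HBM and ALAS2, 3 of 5 measured) had a mean change of -0.06 ± 0.32 in the shunt pigs, higher in 2 of 6, against -0.81 ± 0.80 in the control pigs, higher in 1 of 5. The part of these cells in the changes of the 8 genes was not tested.

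At 120 min the arms had not yet been treated differently, and the mean change was larger in the pigs later given the shunt for 7 of the 8 genes, all but NFKBIA. The genes correlated within pigs, by up to r = 0.93, so these are not separate observations. The median difference was 0.57 over the 8 genes and -0.00151 over all probe sets. None of the differences of the 8 genes passed, and in limma 0 of the 23999 probe sets did (0%), with 1655 at an unadjusted p under 0.05. TLR4 had the smallest p: its change was 1.06 ± 0.29 in the shunt pigs, against 0.32 ± 0.18 in the control pigs (SD), a difference of 0.75 ± 0.19 (SE, unadjusted p = 0.000571, adjusted p = 0.381). In this probe set the lowest change of a shunt pig was 0.79 and the highest of a control pig 0.62, a pattern not counted over all probe sets. The other sets of TLR4 gave differences of 0.27 ± 0.13, 0.22 ± 0.26, 0.07 ± 0.14 and -0.10 ± 0.18 (SE), and none passed. Levels of TLR4 (representative set) and of IL18 at 120 min did not overlap between the arms, all being higher in the shunt arm. That was the case for 1.26% of all probe sets. Levels of the other sets of TLR4 overlapped between the arms.

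The difference between arms in the change at 120 min was 0.71 ± 0.27 for IL10, 0.64 ± 0.30 for IL1B, 0.59 ± 0.20 for TRAF6 and 0.56 ± 0.24 for IL18, with adjusted p-values from 0.562 to 0.713. For IL1R1 it was 0.31 ± 0.37, for IL4R 0.27 ± 0.31 and for NFKBIA -0.17 ± 0.26. At baseline none of the 8 genes differed between arms past the threshold, where 0.0208% of probe sets did. TRAF6 was the furthest apart, at 4.58 ± 0.39 in the shunt pigs and 5.11 ± 0.33 in the control pigs (SD), a difference of -0.53 ± 0.19 (SE, unadjusted p = 0.0156, adjusted p = 0.311). Mean changes of the neutrophil and monocyte, macrophage, lymphocyte and erythrocyte markers, given above, were also higher in the shunt pigs at 120 min. Endothelial, fibroblast and cardiomyocyte markers had mean changes of -0.03, 0.01 and -0.11 in the shunt pigs. In the control pigs these were 0.02, -0.02 and -0.05. None of the markers passed the test between arms, and their part was not tested.

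The next comparison asked what the further 60 min added, with the shunt or without it. In limma none of the 8 genes passed in either arm, and neither did any of the 23999 probe sets (0%), with 2146 in the shunt pigs and 737 in the control pigs at an unadjusted p under 0.05. The test of the difference between arms also called 0 probe sets (0%), with 737 at an unadjusted p under 0.05. Over the 8 genes the median later change was 0.21 in the shunt pigs and 0.14 in the control pigs, and over all probe sets it was -0.02 with the shunt and -0.00456 without it.

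TRAF6 moved in opposite directions in the arms in this interval. In the shunt pigs its later changes were -0.37, -0.48, -0.12, -0.75, -0.18 and -0.44, against 0.25, 0.19, 0.21, 0.46 and 0.33 in the control pigs. Every shunt pig was lower and every control pig higher than at 120 min, and the changes did not overlap. On average TRAF6 moved by -0.39 ± 0.23 in the shunt pigs and by 0.29 ± 0.11 in the control pigs (SD). In limma the difference of -0.68 ± 0.20 (SE) had an unadjusted p of 0.00287 and did not pass adjustment (adjusted p = 0.9997). Among all probe sets, 8 (0.0333%) were lower in every shunt pig and higher in every control pig, and 9 (0.0375%) showed the opposite. The dim second probe set of TRAF6 gave 0.08 ± 0.11 for the same difference, and the mean of both sets gave -0.30. The later difference shares the biopsies at 120 min with the difference in the change at 120 min, which had the opposite sign (0.59 ± 0.20). At baseline the arms differed by -0.53, and over the whole course their changes differed by -0.09.

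**Figure D4:**
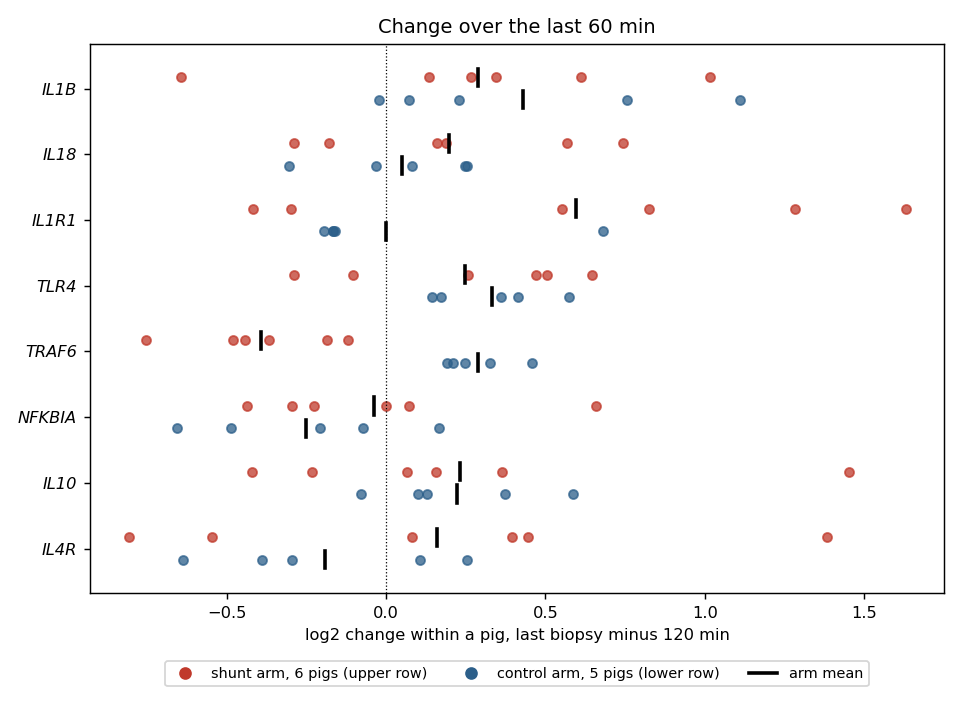
Log2 change within each pig from the last biopsy minus 120 min (horizontal axis) for the 8 genes, red for the 6 shunt pigs in the upper row and blue for the 5 control pigs in the lower row of each gene, with black bars at the arm means. TRAF6 lies between -0.75 and -0.12 in the shunt pigs and between 0.19 and 0.46 in the control pigs.

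The receptors differed among pigs in this interval. The later change of IL1R1 in the shunt pigs was 1.28, 1.63, 0.55, -0.30, -0.42 and 0.82, with a mean of 0.60 ± 0.25 (SE, adjusted p = 0.4995), against a mean of -0.00192 in the control pigs, where control pig 2 (0.68) stood apart from the other 4 (-0.20 to -0.16). For the representative set of TLR4 the mean was 0.25 ± 0.13 in the shunt pigs, higher in 4 of 6 pigs, and 0.33 ± 0.14 in the control pigs, higher in 5 of 5. The means of the other TLR4 sets ran from -0.12 to 0.04 in the control pigs and from -0.00710 to 0.24 in the shunt pigs. IL4R moved by 0.16 ± 0.21 in the shunt pigs and -0.19 ± 0.23 in the control pigs. IL1B moved by 0.29 ± 0.20 in the shunt pigs and 0.43 ± 0.22 in the control pigs. IL18, IL10 and NFKBIA had later changes of 0.20, 0.23 and -0.04 in the shunt pigs and of 0.05, 0.22 and -0.25 in the control pigs.

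Shunt pig 4 differed from the others of its arm. All 8 genes were lower in its last biopsy than at 120 min, with a median of -0.36, while the other 5 shunt pigs had medians between 0.03 and 0.69. In the same pig the neutrophil and monocyte markers had a mean change of -0.60, against 0.16 to 0.89 in the other shunt pigs, and 44.8% of all probe sets were higher. The part of those cells was not tested.

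Between the first and the final biopsy, here called the whole course, 7 of the 8 genes rose in the shunt pigs and 4 in the control pigs, and none fell in either. In the shunt arm 32.6% of all probe sets passed, 13.3% higher and 19.2% lower. In the control arm it was 8.79%, with 3.50% higher and 5.29% lower. The median change of the 8 genes was 0.99 in the shunt pigs and 0.60 in the control pigs, where the medians of all probe sets were 0.000638 with the shunt and -0.00511 without it. These changes share their baseline and last biopsies with the intervals above and are no further evidence for them.

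IL1R1 had the largest change of the 8. Its last level lay between 7.23 and 9.77 in the shunt pigs (median 8.43), against 5.87 to 6.97 at baseline, and it was 7.42, 8.67, 6.80, 6.89 and 7.39 in the control pigs. In neither arm did its last levels overlap those at baseline, which 3.77% of probe sets showed upward in the shunt pigs and 2.25% in the control pigs. The rise was 2.20 ± 0.25, or 4.60-fold, in the shunt arm (adjusted p = 5.82e-07) and 1.29 ± 0.28, or 2.44-fold, in the control arm (adjusted p = 0.00412). The dimmer probe set of IL1R1 moved by 0.10 ± 0.09 in the shunt arm (adjusted p = 0.494). In the control pigs its changes ran from -0.25 to 0.30.

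TLR4 reached 6.78 to 7.89 in the shunt pigs (median 7.49) and 6.47, 7.19, 6.36, 6.77 and 6.49 in the control pigs. It rose by 1.31 ± 0.13, or 2.48-fold, in the shunt arm (adjusted p = 6.98e-08) and by 0.65 ± 0.14, or 1.57-fold, in the control arm (adjusted p = 0.00389). Every pig of both arms was higher at the end, and among the control pigs the change was the most even of the 8 genes, from 0.48 to 0.79. Of the other probe sets of TLR4, 3 rose in the shunt arm, by 0.91 ± 0.17 and 0.26 ± 0.09 in dim sets and 0.55 ± 0.09 in a brighter one, and none passed in the control arm.

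IL4R reached 8.96 to 11.10 in the shunt pigs (median 9.95) and 9.27, 10.07, 8.43, 8.91 and 9.38 in the control pigs. Its rise was 1.57 ± 0.21, or 2.97-fold, in the shunt arm (adjusted p = 3.98e-06) and 0.95 ± 0.23, or 1.93-fold, in the control arm (adjusted p = 0.0104). The call in the control arm depended on control pig 2, without which the change was 0.72 (adjusted p = 0.115). The second probe set of IL4R rose by 0.20 ± 0.08 in the shunt arm (adjusted p = 0.0425). In the control pigs its changes ran from -0.06 to 0.08.

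IL1B reached 6.70 to 8.04 in the shunt pigs (median 7.48) and 6.36, 7.65, 6.42, 6.48 and 6.91 in the control pigs. It rose by 1.11 ± 0.20, or 2.16-fold, in the shunt arm (adjusted p = 0.000164). In the control arm its change of 0.62 ± 0.22 did not pass (adjusted p = 0.0932), and its size depended on single pigs. Without control pig 1, the single pig below its baseline, the change was 0.86 (adjusted p = 0.0326), and without control pig 2, the highest, it was 0.37 (adjusted p = 0.492). The difference between the arms was 0.50 ± 0.30 and did not pass.

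IL10 and IL18 passed in the shunt pigs and not in the control pigs, and for neither did the difference between arms pass. IL10 rose by 0.88 ± 0.18, or 1.83-fold, in the shunt arm (adjusted p = 0.00061) and moved by 0.16 ± 0.20 in the control arm. Its shunt changes were uneven, from 0.17 to 1.99. IL18 rose by 0.70 ± 0.16, or 1.63-fold, in the shunt arm (adjusted p = 0.00177, 5 of 6 pigs) and moved by -0.00831 ± 0.18 in the control arm.

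TRAF6 rose in both arms, by 0.49 ± 0.14 in the shunt pigs (adjusted p = 0.00779) and by 0.58 ± 0.15 in the control pigs (adjusted p = 0.0162). The difference between the arms, -0.09, had a 95% interval from -0.51 to 0.33. The call in the shunt arm was lost without shunt pig 3 (0.35, adjusted p = 0.0692). That in the control arm was lost without control pig 3, 4 or 5 (adjusted p from 0.0652 to 0.108) and without the term for the pig (adjusted p = 0.0951). In the dim second probe set of TRAF6 the changes ran from -0.05 to 0.33 in the shunt pigs and from -0.24 to 0.16 in the control pigs.

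NFKBIA passed in neither arm. Its last level lay between 9.71 and 10.98 in the shunt pigs (median 10.00) and was 9.40, 10.52, 9.65, 10.28 and 10.00 in the control pigs. The change was -0.25 ± 0.17 in the shunt pigs and -0.29 ± 0.19 in the control pigs, with lower values in 4 of 6 shunt pigs and 4 of 5 control pigs. Shunt pig 3 was the one that went furthest the other way, at 0.79, and without it the shunt arm change was -0.46 (adjusted p = 0.0339), where leaving out each pig in turn gave -0.46 to -0.10.

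**Figure D5:**
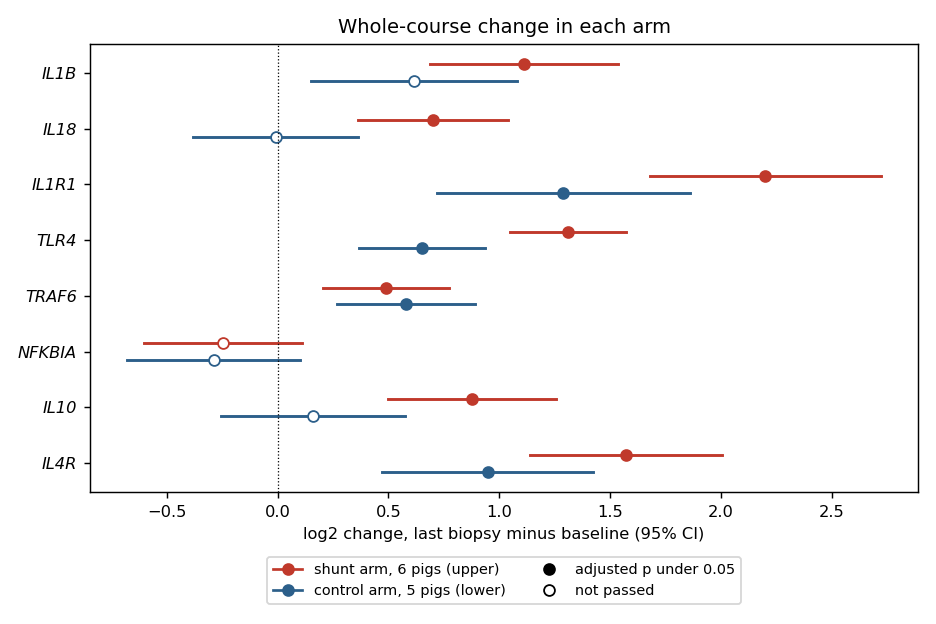
Log2 change from the last biopsy minus baseline (horizontal axis, fitted mean with 95% confidence interval) of the 8 genes, red for the 6 shunt pigs above and blue for the 5 control pigs below, filled where the adjusted p was under 0.05. The shunt arm passes for every gene except NFKBIA, and the control arm for IL1R1, TLR4, TRAF6 and IL4R.

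The difference between the arms over the whole course was itself tested and none of the 8 genes passed, where 0.00417% of probe sets did. It was 0.91 ± 0.37 for IL1R1 (adjusted p = 0.320), 0.72 ± 0.27 for IL10 (adjusted p = 0.281), 0.71 ± 0.24 for IL18 (adjusted p = 0.236), 0.66 ± 0.19 for TLR4 (adjusted p = 0.167), 0.62 ± 0.31 for IL4R (adjusted p = 0.430) and 0.50 ± 0.30 for IL1B (adjusted p = 0.547). TLR4 passed when shunt pig 4 was left out (0.82, adjusted p = 0.0313), and leaving out each pig in turn gave 0.54 to 0.82. For TLR4, IL10 and IL18 the difference at 120 min, before the shunt was in place, was 0.75, 0.71 and 0.56; both intervals share the baseline biopsies. With shunt pigs 5 and 6 as the whole shunt arm, 3 of the 8 genes passed over the course, and IL1B, IL18, IL10 and TRAF6 did not. With these fewer pigs 1860 of the 23999 probe sets passed, against 7815 (32.6%) with every shunt pig.

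Other pathway genes were counted by the same role lists over the whole course, against the 13.3% of all probe sets that were higher in the shunt pigs and 3.50% in the control pigs. In limma 0 genes of the pathway and marker lists passed the test between arms, where 2922 of all probe sets had an unadjusted p under 0.05, so the counts below do not show a difference between the arms. Feedback inhibitors had 6 of 9 genes higher in the shunt pigs and 4 of 9 in the control pigs. NFKBIB rose by 0.78 ± 0.13 in the shunt pigs and 0.59 ± 0.14 in the control pigs, and OTULIN by 0.83 ± 0.10 in the shunt arm, against 0.51 ± 0.11 in the control arm. Toll-like receptors and co-receptors had 4 of 8 genes higher in the shunt pigs and 1 of 8 in the control pigs; TLR2 rose by 1.35 ± 0.17 in the shunt pigs and 0.83 ± 0.19 in the control pigs, and LY96, which encodes the co-receptor MD-2 of TLR4, rose by 0.63 ± 0.14 in the shunt arm. In interleukin-10 and interleukin-4 receptor signalling, 7 of 11 genes were higher and 1, TYK2, was lower in the shunt arm (-0.34 ± 0.08), and 3 were higher in the control arm, with STAT3 at 1.43 ± 0.14 in the shunt pigs and 0.76 ± 0.16 in the control pigs. IL18BP, the secreted inhibitor of interleukin-18, rose by 0.66 ± 0.13 in the shunt arm. Neutrophil and monocyte markers also moved over this course: 6 of 8 were higher in the shunt pigs and 1 of 8 in the control pigs, S100A9 by 3.48 ± 0.39 in the shunt pigs and 1.39 ± 0.43 in the control pigs. Their summed signal in the last biopsies ran from 965 to 3026 in the shunt pigs and from 705 to 1069 in the control pigs. Over the same course the erythrocyte markers had a mean change of 0.40 ± 0.53 in the shunt pigs, higher in 5 of 6, against -0.70 ± 0.60 in the control pigs, of which all 5 were lower, and their summed signal in the last biopsies ran from 583.6 to 2719 in the shunt pigs, against 482.5 to 772.7 in the control pigs. The median difference between the arms in the changes of these 3 markers was 1.43. At baseline, which these changes share, their median difference was -0.70, shunt minus control. Their summed signal at baseline ran from 509.5 to 969.3 in the shunt pigs and from 548.8 to 1512 in the control pigs. Lymphocyte markers had a mean change of -0.00459 ± 0.15 in the shunt pigs, against -0.22 ± 0.09 in the control pigs, lower in 5 of 5. Cardiomyocyte markers had a mean change of -0.18 ± 0.11 in the shunt pigs (higher in 1 of 6), against -0.04 ± 0.05 in the control pigs (higher in 0 of 5). Macrophage, endothelial and fibroblast markers had mean changes of 0.25, 0.02 and -0.00446 in the shunt pigs. In the control pigs these were 0.25, -0.00676 and 0.01. The part of these cells in the changes of the 8 genes was not tested.

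Within pigs the 8 genes moved together to differing degrees. As a description over the 33 arrays after each pig's mean was taken off, IL1R1 and IL4R had the highest correlation with each other (r = 0.93), followed by TLR4 with IL1R1 (0.91) and with IL1B (0.87). NFKBIA correlated with the other 7 at -0.29 to 0.09. All these arrays share the times of biopsy, so genes that change with time also correlate. Among all 6764 other genes, those most like IL1B were CXCL8, a chemokine for neutrophils (0.89), IL6 (0.87) and TLR4 (0.87). Most like TLR4 were RBM3 (0.95), PRPF38A (0.95) and TLR2 (0.94), and most like IL4R were LOC100522887 (0.98), HSD17B7 (0.98) and STAT3 (0.97). IL1R1 was nearest to NOP56, EIF4A1 (both 0.97) and PTBP1 (0.96), and TRAF6 to ANK3 (0.83), PLXNA2 (0.82) and ABCA1 (0.81).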

How the data were processed

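RNA from 33 biopsies was hybridised to 1 array each. The authors deposited log2 values per probe set, summarised by RMA per the submitters' processing notes; the software and the arrays processed as 1 batch are not stated in the labels. They ran from 2.21 to 15.2 and were used unchanged. The number of arrays limits the precision. Of 24123 probe sets, 124 controls were left out. The platform annotation gave 1 symbol to 10069 of those tested, several to 198 and none to 13732. No genome was used, so positions and sequences are not given.

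With limma 3.58.1 in R 4.3.3, a linear model with moderated variances took in the 33 arrays, with a term per pig and per arm and time (18 residual degrees of freedom). Each pig is 1 replicate. Tests were two-sided, with Benjamini-Hochberg adjustment over 23999 probe sets and a threshold of 0.05. The baselines were compared on 11 arrays alone. The labels tie the biopsies to pigs, and this pairing was checked: deviations from group means correlated at a median r of 0.395 within pigs and -0.05 between them. The 8 genes were always named, other pathway genes by role list (up to 4 a list, by smallest p), and the 3 most similar genes for each gene that passed at 120 min. The genes, lists and array sets were chosen with earlier results of these data known. Alternatives were array centring, quantile normalisation, no term or a random term for the pig (statmod 1.5.0), trend and robust variances, leaving out the 30% dimmest probe sets, means per gene, array weights, the array sets, and each pig left out. Background correction could not be varied.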

Additional observations from a re-analysis of the deposited data

Results flagged for a closer look

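Of 96 groups of pigs examined, 3 held a pig far from the rest of its group, and chance alone gives about 1 in 20. The later change of IL1R1 in control pig 2 was 0.68, where the other control pigs lay between -0.20 and -0.16. The baseline level of IL18 in shunt pig 6 was 5.98, where the other shunt pigs lay between 5.07 and 5.26. The change of TLR4 at 120 min in control pig 4 was 0.62, where the other control pigs lay between 0.19 and 0.31. The later change of TRAF6, shunt minus control, was -0.68, since every shunt pig moved down and every control pig up; the difference was tested and did not pass adjustment (adjusted p = 0.9997).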

How the results depend on the processing

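Across the alternatives other than leaving out a pig, 688 of the single-gene results kept their direction and their side of the threshold, 9 lost the threshold, 2 gained it and 20 changed sign; leaving out each pig in turn gave 750, 5, 4 and 33. None of the results that changed sign had passed. The fits without the replicate block called 826 probe sets over the whole course in the control arm and 0 for the difference between arms, against 2110 and 1 with it; IL1B at 120 min (adjusted p = 0.0559) and TRAF6 over the control course (adjusted p = 0.0951) lost their calls, and no other call of the 8 genes changed. With pig as a random block 1 probe set was called in the later change of the shunt arm. Averaging the probe sets of a gene tested 6765 genes and called 2285 at 120 min, 2779 and 621 over the shunt and control courses, 3 for their difference and 3 at baseline. Array weights called 46 in the later change of the shunt arm, 3440 over the control course, where IL1B then passed (0.64, adjusted p = 0.0236), and 189 for the difference over the course. The 5 calls between arms at baseline became 1 with centred arrays, 1 with trend and robust eBayes, 0 with shunt pigs 1 to 4, 16 with shunt pigs 5 and 6 and 0 with array set as a random block. Shunt pigs 1 to 4 gave 0 for the difference over the course, shunt pigs 5 and 6 gave 3891 at 120 min and 1860 over the shunt course, with 3 of the 8 genes, and control pigs alone 1790 at 120 min, with 3 of the 8. The cause was not tested, beyond the fewer pigs or genes.

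Signs turned as follows. IL1R1 in the later change of the control arm (-0.00192) was 0.00616 with centred arrays, 0.000599 with quantile normalisation and 0.0019 with array weights, and IL18 over the control course was 0.00329 with centred arrays. Gene means gave 0.087 for TLR4 in the later difference between arms, and -0.027 for IL4R and -0.042 for TLR4 at baseline. Array weights gave -5.70e-05 for IL10 in the later difference, -0.036 for NFKBIA in the difference over the course and -0.021 for IL10 at baseline. With shunt pigs 1 to 4, NFKBIA in the later shunt change was 0.052. With shunt pigs 5 and 6, IL18 at 120 min was -0.00377, IL4R in the later shunt change -0.076, IL10 in the later difference -0.00748, NFKBIA in the difference over the course -0.18, and IL1B, IL10 and IL4R at baseline -0.089, -0.039 and -0.060. In control pigs alone IL18 and IL10 at 120 min were -0.057 and -0.062.

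Leaving out each pig gave 5 to 6 of the 8 genes at 120 min, 7 over the shunt course (without shunt pig 3, NFKBIA passed as lower and TRAF6 did not pass), 3 to 5 over the control course and 0 to 1 for their difference. Probe sets called ran from 5825 to 7348 at 120 min and from 6497 to 8047 over the shunt course. With every pig these counts were 6964 and 7815. For the difference between the arms over the course they ran from 0 to 274 (274 without shunt pig 4, 118 without shunt pig 5). Over the control course they ran from 849 to 2400 (849 without control pig 2, 1314 without control pig 1). They ran from 0 to 11 in the later shunt change and from 0 to 2 at baseline. In the later shunt change IL10 ran from -0.014 to 0.36, IL4R from -0.087 to 0.35 and NFKBIA from -0.18 to 0.041. In the later difference IL10 ran from -0.24 to 0.14, IL1B from -0.29 to 0.047 and TLR4 from -0.17 to 0.022. In the later control change IL1R1 ran from -0.17 to 0.046 and IL18 from -0.00227 to 0.14. IL18 over the control course ran from -0.12 to 0.092. In the difference over the course NFKBIA ran from -0.17 to 0.21 and TRAF6 from -0.28 to 0.026. At baseline IL10 ran from -0.069 to 0.047, IL1B from -0.00551 to 0.30 and IL1R1 from -0.073 to 0.24. IL10 has no value without the dimmest probe sets, being one of them.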
